A study of Mus musculus with 13 samples.

Results

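The genes described here are the ligands and receptors that steer growing axons: the Eph receptors and their ephrin ligands, the semaphorins with their plexin and neuropilin receptors, the Slits with the Robo receptors, and netrin with its receptors. They were taken by symbol from the annotation of an Illumina MouseRef-8 bead array, as every probe whose symbol begins with Epha, Ephb, Efna, Efnb, Sema, Plxn, Robo, Slit or Unc5 followed by a member number or letter, or is Nrp2, Dcc, Ntn1 or Neo1. This gave 63 genes on 84 probes, of 24613 probes with a signal. Of these 63 genes, 50 passed a filter on dim probes (detection p under 0.05 on at least 3 arrays) and were tested among 11064 genes in all. The other 13, namely Epha6, Ephb3, Efna2, Sema3c, Sema3d, Sema3e, Plxna1, Plxnb3, Robo3, Robo4, Dcc, Ntn1 and Unc5d, were detected on too few arrays and were not tested. Nrp1 also belongs to the rule, but the array lists it under the older symbol Nrp, so it is given beside the set and is in none of its counts.

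Rotenone, an inhibitor of mitochondrial complex I, was given at 10 nM, carried in DMSO, to primary cortical neurons prepared from fetuses of Swiss albino mice at gestation day 15 to 16 and kept 5 days in culture. The arrays came from cultures treated for 8 h, 15 h and 24 h (3 arrays each) and from vehicle controls (4 arrays). The sampling time of the vehicle cultures is not given, and nothing in the labels ties the arrays of a group to different cultures. The p-values therefore cover only array-to-array spread, which may be technical.

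Axon guidance cues act at the growth cone, where a ligand in the surroundings or on a neighbouring cell binds a receptor that moves the actin and microtubule skeleton toward or away from it. Ephrins, semaphorins and Slits are known mainly as repellents, and netrin attracts or repels depending on the receptor. In the developing cortex these families set the course of callosal, corticospinal and thalamocortical axons and the migration of interneurons. Several of them stay in use later at dendrites and synapses, and receptors of the Unc5 family are also known as dependence receptors, which can signal cell death when they are not bound by their ligand.

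Values below are log2 signals after background correction with an offset of 50 and quantile normalization, and changes are differences of these log2 signals with their standard error. Because of the offset and the background, they understate the changes of dim genes. Detection ranged from 50.4% to 53.3% of probes per array, and the mean signal was 222.1 to 286.9 on the 15 h and 24 h arrays, against 325.1 to 405.0 on the control and 8 h arrays. In these whole cultures, fewer cells of a type and less RNA per cell cannot be told apart. Of the neuron markers (Tubb3, Map2, Snap25 and others), 7 of 8 tested were lower at 24 h, and their summed signal was 6309 to 6533 at 24 h and 4503 to 7636 at 15 h, against 19257 to 21205 in controls. Nefl, a neurofilament gene on that list, was detected on no array. Summed signals of the other lists at 24 h, against controls, were 26451 to 27810 against 14161 to 16113 for astrocytes, 1920 to 2046 against 750 to 859 for microglia, 10071 to 11166 against 1170 to 1535 for fibroblasts and 11844 to 12396 against 3760 to 5145 for neural progenitors. For oligodendrocyte lineage genes they were 4459 to 4916 against 11613 to 12688, and for endothelial cells 325 to 347 against 284 to 304. These sums rest on the brightest genes, since members went both ways in several lists: at 24 h 5 were higher and 2 lower of 8 tested astrocyte genes, 5 and 0 of 7 for microglia, 2 and 1 of 4 for fibroblasts, 2 and 1 of 5 for progenitors (median change 0.08), 1 and 6 of 9 for the oligodendrocyte lineage and 1 and 0 of 4 for endothelial cells. The defining markers Slc1a2 and S100b of astrocytes, Itgam and Csf1r of microglia, Col1a1, Col1a2, Col3a1 and Lum of fibroblasts, Cdh5, Tek and Kdr of endothelial cells, Mog of oligodendrocytes and Pax6 of progenitors were detected on no array. At 24 h, 27.4% of all genes were called higher and 27.3% lower, and several of the marker counts lie near those shares. The part of the marker shifts in the changes of the guidance genes was not tested. The first of the 15 h arrays stood apart from the other 2 for several guidance genes. Values without it are given where the 15 h call changed and for some other genes.

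At 8 h, none of the 50 tested genes passed the test in either direction (limma, adjusted p under 0.05 over all genes), against 0.145% of all genes called higher and 0.289% called lower. At an unadjusted p under 0.05, 3 of the 50 were higher and 5 lower at 8 h, where 514 of all 11064 genes were higher and 667 lower. Without 15 h replicate 1, 2 genes were called at 8 h, Sema4a higher and Sema5a lower, and without 8 h replicate 2, 1 gene was, Sema5a. Of all genes, these fits called 1.66% and 1.62%. At 15 h, 7 genes were higher and 23 lower than in controls, which is 14% and 46% of those tested, where 25.4% of all genes were called higher and 24.7% lower. At 24 h, 8 were higher and 32 lower, which is 16% and 64%, where 27.4% of all genes were called higher and 27.3% lower. The median change of the tested guidance genes was -0.18 at 15 h and -0.36 at 24 h, against 0.02 and 0.01 over all genes. At both times the share called lower was above the share over all genes and the share called higher below it, which describes the genes tested and not all 63. The filter on dim probes bears on these counts, since Epha2 passed it only through the 24 h arrays. By the probe used, Epha1, Epha7, Nrp2, Plxna4 and Sema4d were detected at 8 h and in controls and on no 15 h or 24 h array, and 32 genes were detected on all 13 arrays.

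The balance of rises and falls depended on how the arrays were scaled. Quantile normalization left the median of all genes at 0.024 at 15 h and 0.013 at 24 h, whereas scaling each array to its median put it at -0.161 and -0.252, no scaling at -0.251 and -0.388, and the authors' own normalized values at -0.176 and -0.242. Rises made up 23.3% of the guidance genes called at 15 h, and 13.9% with median scaling, 10.5% with no scaling and 12.1% with the authors' values. At 24 h they made up 20%, and 15.4%, 9.52% and 13.2% with these scalings. Of all genes, 50.1% were called at 15 h with quantile normalization, and 54%, 54.2% and 53.5% with these scalings. At 24 h the shares were 54.7%, and 62.2%, 67.4% and 60.8%. Rises among all genes called were not counted under the other scalings, so the fewer rises cannot be set against all genes. Median scaling gave 5 risers with 31 fallers at 15 h, and 6 with 33 at 24 h, and the median guidance gene lay at -0.43 and -0.54, below the median of all genes at both times. With all 3 other scalings, Epha4, Ephb1, Slit2, Plxna2, Sema3f, Sema4a and Sema5a were also called lower at 15 h, and Sema4b and Sema6d at 24 h. Median scaling further called Epha2 higher and Efna4 lower at 15 h. No scaling called lower Epha1, Efna3, Efna4 and Plxnc1 at 15 h and Slit3, Plxna3, Sema4c and Sema5b at 24 h. Calls lost under a scaling are given with their families.

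**Figure D1:**
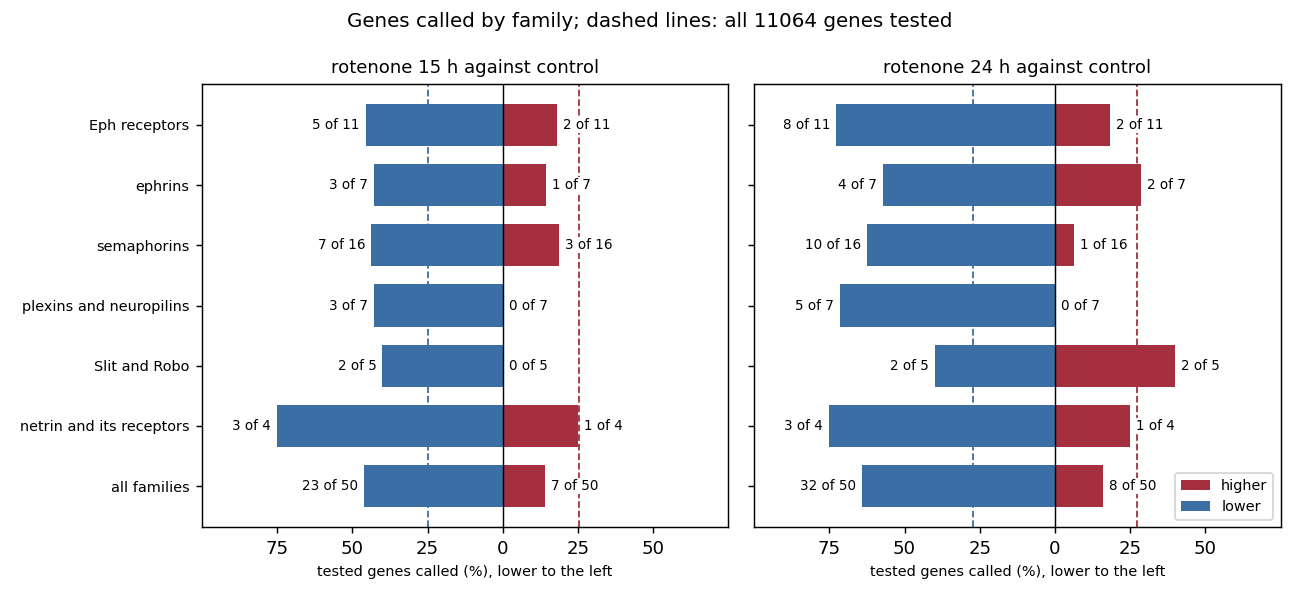
Percent of tested genes called higher (to the right) or lower (to the left) at 15 h and 24 h of rotenone against vehicle control, by family, with the number called of the number tested beside each bar. The dashed lines mark the shares of all 11064 genes, 25.4% higher and 24.7% lower at 15 h and 27.4% and 27.3% at 24 h, and with quantile normalization falls exceed them in every family, with 40% of Slit and Robo genes both higher and lower at 24 h (with the authors' values 0 of 5 higher).

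The 15 h and 24 h comparisons share their control arrays, so their values are set side by side below. Of the tested genes, 8 were called at neither time with quantile normalization, namely Epha1, Slit3, Efna3, Plxna3, Plxnb1, Sema4c, Sema5b and Sema6a.

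Leaving out the first 15 h array gave 6 genes higher, 25 lower at 15 h, where 48.3% of all genes were called. Epha5 and Nrp2 then lost their calls and Epha4, Sema3f and Sema4a gained one. Other 15 h changes moved without a change of call. Efnb1 went from -0.74 to -0.55, Sema3b from 0.59 to 0.43 and Sema6b from -1.78 to -1.61. Ephb2 went from -1.09 to -1.32 and Efnb3 from -0.82 to -0.98. Efna5, not called either way, went from 0.48 to 0.26. The arrays lie on 2 bead chips. By identical signals in the deposited gene profile, the first 15 h array is the only 15 h array on its chip. Array and chip cannot be told apart there. By the labels, it shares a chip with 15 h replicate 2. With the chip as a block, 30 genes were called at 15 h and 41 at 24 h by the chips that the labels give. By the chips that identical signals in the deposited gene profile give, 32 and 39 were called. Of all genes, these blocks called 49% and 54.2% by the labels' chips, and 51.7% and 55.1% by the matched chips. Within single chips, with 1 or 2 arrays a group, only median changes of the tested guidance genes are given. At 15 h these were -0.24 and -0.15 on the labels' chips, against 0.01 and 0.03 over all genes. On the matched chips they were -0.12 and -0.27, against 0.04 and 0.01. At 24 h they were -0.31 and -0.40 on the labels' chips and -0.40 and -0.34 on the matched chips, against 0.01 over all genes each time.

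**Figure D2:**
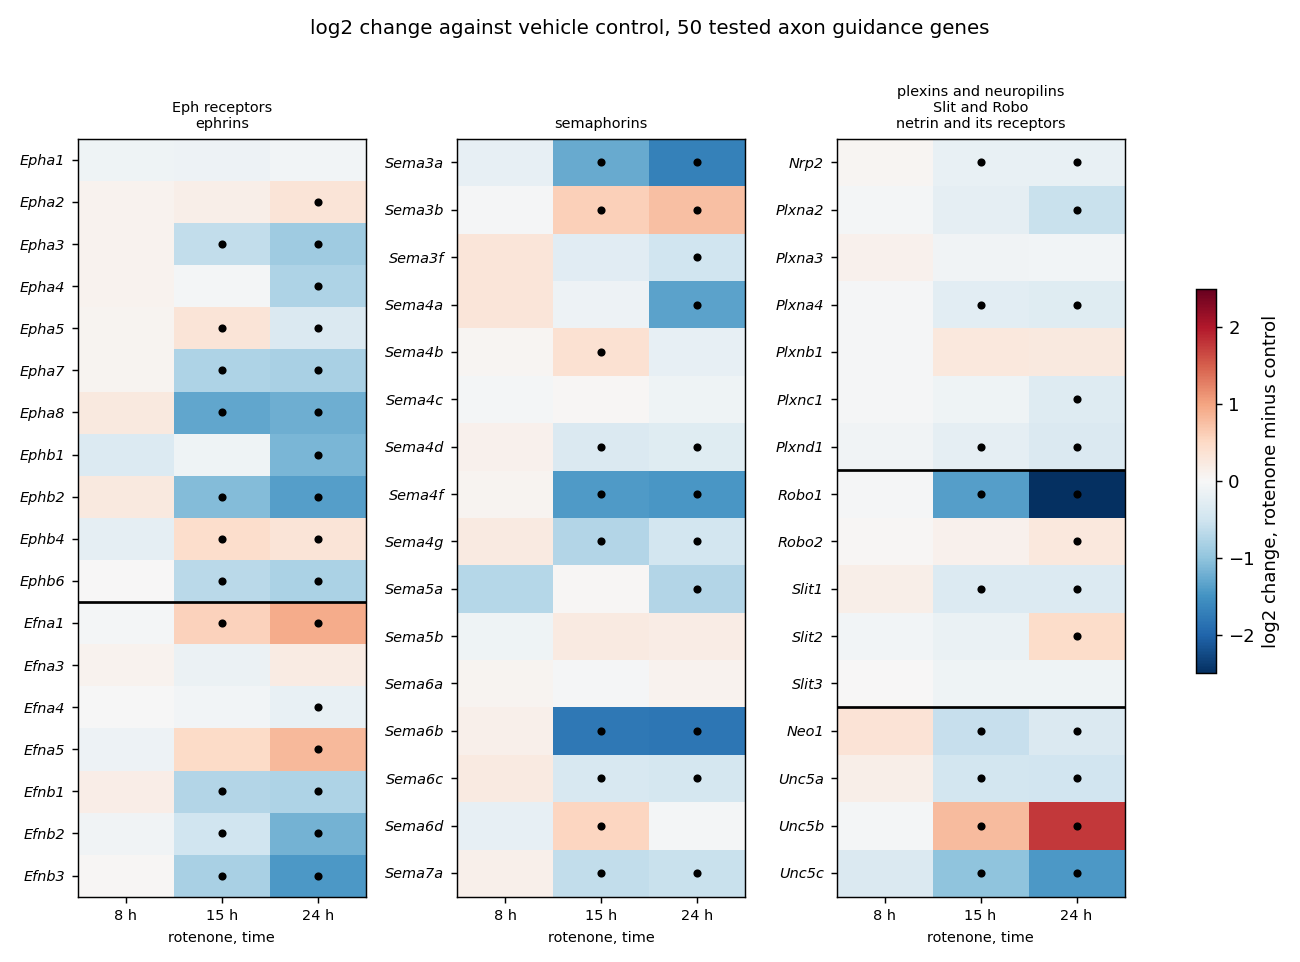
Change against vehicle control (log2, rotenone minus control) of the 50 tested guidance genes at 8 h, 15 h and 24 h, by family, with a black dot where limma's adjusted p was under 0.05. No gene has a dot at 8 h, Robo1 has the deepest fall at -2.49 and Unc5b the highest rise at 1.77, both at 24 h, and the rises of Efna5 and Slit2 at 24 h and of Sema4b, Sema6d and Epha5 at 15 h lose their call or their sign under one or more of the other scalings.

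Slits are secreted repellents and Robo proteins their receptors, known for keeping axons from crossing or re-crossing the midline. Of 5 tested genes, the test called 2 higher and 2 lower at 24 h, and 0 and 2 at 15 h. Robo1 (NM_019413), a Slit receptor of cortical axons and migrating interneurons, had the largest fall of the 50 tested genes. It read 7.56, 7.78 and 7.60 at 24 h, against 10.34, 10.34, 10.15 and 9.72 in controls. The 8 h arrays read 10.04, 10.31 and 9.96 and the 15 h arrays 8.98, 8.58 and 8.73, so the 8 h arrays lay within the range of the controls while all later arrays lay below it. The change was -1.37 ± 0.15 at 15 h (limma adjusted p = 1.7e-06) and -2.49 ± 0.15 at 24 h (adjusted p = 1.5e-09), and the difference between 24 h and 15 h was -1.12 ± 0.16 (adjusted p = 1.2e-04). With median scaling the changes were -1.86 at 15 h and -3.02 at 24 h.

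Robo2, the second Slit receptor of the nervous system, differed from its relative, with 6.52 ± 0.12 at 24 h, against 6.26 ± 0.15 in controls (SD, n = 3 and 4; change 0.26 ± 0.08, adjusted p = 0.0134). This call was lost without control replicate 2 (0.20, adjusted p = 0.0502) or 24 h replicate 2 (0.20, adjusted p = 0.084), with no scaling (0.07) and with the authors' values (0.28), and Robo2 is dim, detected on 2 of the 4 control arrays. Among the ligands, Slit1 was lower at 15 h (-0.34 ± 0.10, adjusted p = 0.0105) and at 24 h (-0.35 ± 0.10, adjusted p = 0.0072). Its 15 h call was lost without 15 h replicate 2 (adjusted p = 0.051) or replicate 3 (adjusted p = 0.0522). Slit2 read 8.43, 8.34 and 8.48 at 24 h, against 7.84, 8.13, 8.13 and 7.72 in controls. It read 8.00, 7.64 and 8.03 at 8 h and 7.98, 7.70 and 7.69 at 15 h, so only the 24 h arrays lay above the controls. The change at 24 h was 0.46 ± 0.13 (adjusted p = 0.0072), but -0.07 with median scaling, -0.21 with no scaling and 0.01 with the authors' values. Relative to the median of all genes under the same scaling, these are 0.18, 0.18 and 0.25. At 15 h its change of -0.17 was not called, whereas median scaling, no scaling and the authors' values gave -0.56, -0.65 and -0.58, called lower each time. Slit3 was not called at any time (change at 24 h -0.10 ± 0.08, adjusted p = 0.285).

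The promoter windows of the genes with the largest fall and the largest rise, Robo1 and Unc5b, are shown with that of Unc5c, a close relative of Unc5b that changed the other way. They are taken from RefSeq on GRCm38.p6, run from 250 bases before to 50 bases after the annotated gene start, and are written 5′ to 3′ on the gene's strand. Capitals mark GC boxes, the only one of 5 motifs searched that was found in any of the 3.
Robo1, chr16:72662899-72663198, plus strand: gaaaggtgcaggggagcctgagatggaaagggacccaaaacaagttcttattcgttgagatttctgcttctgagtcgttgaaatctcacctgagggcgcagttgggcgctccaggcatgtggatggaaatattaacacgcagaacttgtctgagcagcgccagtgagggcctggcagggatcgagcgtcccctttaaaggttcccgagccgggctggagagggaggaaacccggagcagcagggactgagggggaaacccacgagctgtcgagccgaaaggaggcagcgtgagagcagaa
Unc5b, chr10:60831532-60831831, minus strand: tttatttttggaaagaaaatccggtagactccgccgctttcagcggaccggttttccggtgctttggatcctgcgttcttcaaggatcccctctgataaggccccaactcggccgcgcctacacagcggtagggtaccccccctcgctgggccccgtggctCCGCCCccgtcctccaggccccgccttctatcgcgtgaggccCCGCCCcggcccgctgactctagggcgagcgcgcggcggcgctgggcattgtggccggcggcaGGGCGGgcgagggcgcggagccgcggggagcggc
Unc5c, chr3:141465314-141465613, plus strand: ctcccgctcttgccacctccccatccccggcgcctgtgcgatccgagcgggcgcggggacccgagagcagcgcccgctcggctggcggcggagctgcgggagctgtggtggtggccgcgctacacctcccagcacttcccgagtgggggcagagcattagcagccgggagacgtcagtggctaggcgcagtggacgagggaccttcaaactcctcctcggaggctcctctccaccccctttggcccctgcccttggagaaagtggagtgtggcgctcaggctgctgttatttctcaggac
The Unc5b window held 3 GC boxes (GGGCGG on either strand) and the other two none. The windows of Robo1, Unc5b and Unc5c held no CCAAT box (CCAAT), E-box (CACGTG), cyclic AMP response element (TGACGTCA) or C/EBP-ATF element (TGATGCAA), with both strands searched and no motif contained in another. A GC box stood in 47 of the 68 windows listed for 53 of the guidance genes, which is 69.1%, against 35.7% of all 32851 windows. For the CCAAT box these shares were 30.9% and 37.4%, for the E-box 7.35% and 7.15%, for the cyclic AMP response element 1.47% and 1.79%, and for the C/EBP-ATF element 0% and 0.895%. By direction at 24 h, a GC box stood in 23 of 36 windows of guidance genes called lower and in 7 of 10 of those called higher. A link between a motif and the direction of change was not tested. A match describes the letters of the window only.

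Netrin acts through Dcc and neogenin and through the Unc5 receptors, which convert its attraction into repulsion. Netrin 1 itself (Ntn1), Dcc and Unc5d were detected on no array. The 4 tested receptors all passed the test at both late times, 1 higher and 3 lower. Unc5b (NM_029770), a netrin receptor and dependence receptor, rose the most of the 50 tested genes. It read 9.16, 8.84 and 8.49 at 24 h, against 6.95, 6.96, 7.06 and 7.25 in controls. The 8 h arrays read 7.16, 6.90 and 6.99 and the 15 h arrays 7.65, 7.93 and 7.96. Every 15 h array lay above the controls, and every 24 h array above the 15 h arrays. The changes were 0.79 ± 0.14 at 15 h (adjusted p = 2.4e-04) and 1.77 ± 0.14 at 24 h (adjusted p = 3.6e-08), with 0.98 ± 0.15 between 24 h and 15 h (adjusted p = 2.4e-04). With median scaling the rise at 24 h was 1.30, with no scaling 1.16 and with the authors' values 1.51.

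Unc5c (NM_009472), which mediates repulsion by netrin, moved in the opposite direction. It read 6.45, 6.43 and 6.51 at 24 h, against 8.04, 7.85, 8.15 and 7.58 in controls. It read 7.41, 7.86 and 7.35 at 8 h and 6.80, 6.86 and 7.07 at 15 h, so the 8 h arrays overlapped the controls and all later ones lay below them. The changes were -1.00 ± 0.14 at 15 h (adjusted p = 2.3e-05) and -1.44 ± 0.14 at 24 h (adjusted p = 2.9e-07). The difference between 24 h and 15 h (-0.44 ± 0.15, adjusted p = 0.0431) lost its call without control replicate 1 or 2, 8 h replicate 1, 15 h replicate 2 or 3 or any one of the 24 h arrays (adjusted p = 0.0503 to 0.137), and with each of the 3 other scalings. Unc5a fell by less (-0.46 ± 0.08 at 15 h and -0.48 ± 0.08 at 24 h, adjusted p = 2.8e-04 and 1.4e-04). Neogenin (Neo1), a receptor for netrin and for repulsive guidance molecules, read 9.80 ± 0.09 at 24 h, against 10.17 ± 0.29 in controls. It was lower at 15 h (-0.58 ± 0.14, adjusted p = 0.0024) and at 24 h (-0.36 ± 0.14, adjusted p = 0.034), the 24 h call being lost without control replicate 2 or 3 or without any one of the 24 h arrays (adjusted p = 0.0563 to 0.122).

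**Figure D3:**
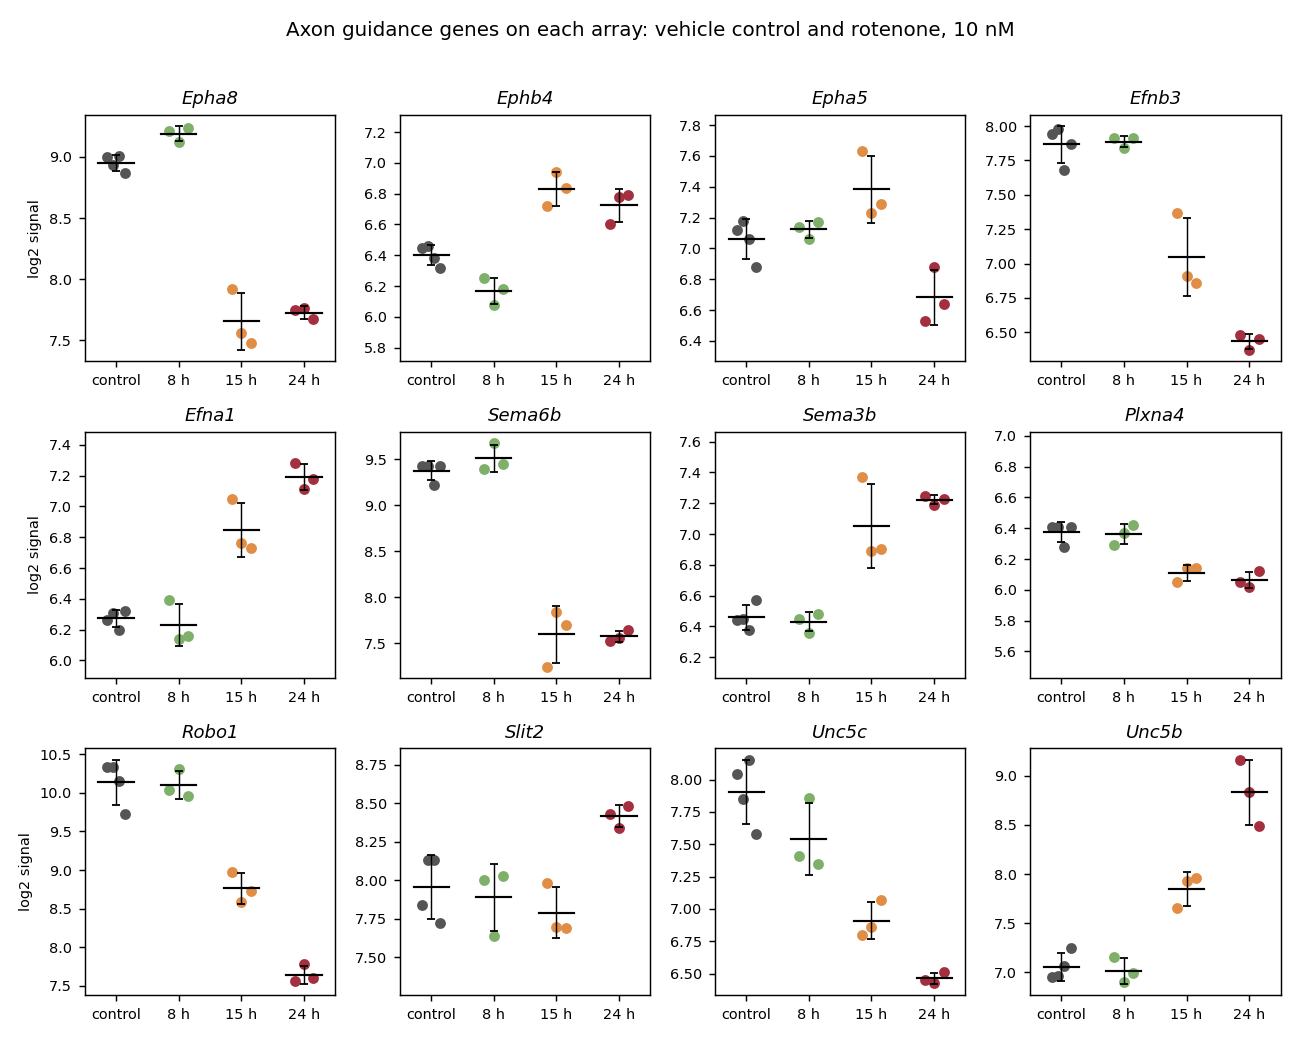
Log2 signal on each array of 12 guidance genes in vehicle controls and after 8 h, 15 h and 24 h of 10 nM rotenone, each point an array, the long bar the group mean and the error bar the SD (n = 4 controls, 3 at each time). Robo1, Unc5c, Efnb3, Epha8 and Sema6b lie below all controls on every 15 h and 24 h array, Unc5b, Efna1, Sema3b and Ephb4 above them, and Epha5 is high at 15 h and low at 24 h (its 15 h rise is 0.06 with median scaling and -0.03 with no scaling).

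Semaphorins are a large family of secreted (class 3), membrane-bound (classes 4 to 6) and lipid-anchored (class 7) cues. Of 16 tested genes, 1 was higher and 10 lower at 24 h, and 3 were higher and 7 lower at 15 h. The deepest falls at 24 h were in Sema6b, Sema3a, Sema4f and Sema4a. Sema6b (NM_013662), a membrane-bound ligand of plexin A4, read 7.52, 7.56 and 7.64 at 24 h, against 9.43, 9.43, 9.22 and 9.43 in controls. It read 9.40, 9.68 and 9.45 at 8 h and 7.24, 7.84 and 7.70 at 15 h. All 15 h and 24 h arrays lay far below the rest, with changes of -1.78 ± 0.13 (adjusted p = 3.4e-08) and -1.80 ± 0.13 (adjusted p = 1.0e-08), and the 2 late times did not differ beyond their spread (-0.02 ± 0.14). Its second, dimmer probe showed changes of -0.34 and -0.47, both called as well.

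Sema3a, the secreted repellent of cortical axons, averaged 6.34 ± 0.12 at 24 h and 8.03 ± 0.37 in controls (SD, n = 3 and 4), a change of -1.69 ± 0.19 (adjusted p = 1.6e-06). At 15 h the change was -1.26 ± 0.19 (adjusted p = 4.7e-05). Sema4f, found at glutamatergic synapses, changed by -1.41 ± 0.11 at 15 h and by -1.46 ± 0.11 at 24 h (adjusted p = 9.2e-08 and 2.3e-08). Sema4a averaged 7.72 ± 0.03 at 24 h and 9.05 ± 0.03 in controls (change -1.33 ± 0.13, adjusted p = 2.6e-07), while at 15 h it read 9.34, 8.68 and 8.74 and was not called (-0.13 ± 0.13, adjusted p = 0.411). Without the first 15 h array its 15 h change was -0.34 ± 0.08 (adjusted p = 0.002), and with median scaling, no scaling and the authors' values it was -0.60, -0.69 and -0.60, called each time. The difference between 24 h and 15 h was -1.20 ± 0.14 (adjusted p = 1.5e-05).

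Smaller falls were called in Sema4d, the ligand of plexin B1, and in Sema7a, which binds integrins and plexin C1, both dim at the late times. Sema4d was detected on no 15 h or 24 h array and was at least 1.11-fold lower at 15 h and 1.12-fold lower at 24 h (adjusted p = 2.4e-04 and 0.0013). Less the median of all genes, its 24 h change was -0.04 with median scaling, -0.04 with no scaling and -0.16 with the authors' values. Sema7a was detected on no 15 h array, where it was at least 1.46-fold lower (adjusted p = 4.1e-06), and on 1 of 3 arrays at 24 h (-0.56 ± 0.07, adjusted p = 7.2e-06). Here and below, such a bound sets the mean of the brighter group against the lowest signal detected on the dimmer group's arrays. Sema6c fell by 0.40 at 15 h and by 0.43 at 24 h, and Sema3f, a ligand of neuropilin 2, was lower at 24 h (-0.49 ± 0.14, adjusted p = 0.009). At 15 h Sema3f was at -0.28 and not called, and at -0.72, -0.81 and -0.75, each called, with median scaling, no scaling and the authors' values. Without the first 15 h array its 15 h change was -0.49 ± 0.11 (limma adjusted p = 0.0018). Sema4g was lower at both times (-0.73 ± 0.17 and -0.45 ± 0.17, adjusted p = 0.0017 and 0.0332), but at 24 h the call was lost without control replicate 1, 2 or 3 or without 24 h replicate 1 or 3 (adjusted p = 0.0573 to 0.151).

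Sema5a read 9.01, 8.10 and 8.09 at 15 h and 7.63 ± 0.01 on average at 24 h, against 8.37 ± 0.08 in controls, with a change of 0.03 ± 0.18 at 15 h and -0.74 ± 0.18 at 24 h (adjusted p = 0.915 and 0.0029). Its 15 h change was -0.28 without the first 15 h array (adjusted p = 0.079) and -0.40 with median scaling (adjusted p = 0.0439), -0.49 with no scaling and -0.40 with the authors' values, each called. At 8 h the difference was -0.71 ± 0.18 and did not pass the test (adjusted p = 0.119), although all 8 h arrays lay below the controls. Its second probe changed by -0.12, -0.27 and -0.24 at the 3 times.

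Sema3b (NM_009153), a secreted class 3 semaphorin, was the only semaphorin called higher at 24 h, with any of the scalings tried. It read 7.25, 7.19 and 7.23 at 24 h, against 6.44, 6.45, 6.38 and 6.57 in controls. It read 6.45, 6.36 and 6.48 at 8 h and 7.37, 6.89 and 6.90 at 15 h, so both late groups lay above the others. The changes were 0.59 ± 0.10 at 15 h (adjusted p = 1.6e-04) and 0.76 ± 0.10 at 24 h (adjusted p = 1.0e-05). The other rises at 15 h were in Sema4b (0.38 ± 0.09, adjusted p = 0.0027) and Sema6d (0.53 ± 0.10, adjusted p = 2.9e-04). At 24 h Sema4b was at -0.20 ± 0.09 and Sema6d at -0.04 ± 0.10 (adjusted p = 0.0752 and 0.746). With median scaling, no scaling and the authors' values, Sema4b was at -0.87, -1.01 and -0.79 and Sema6d at -0.42, -0.56 and -0.41 at 24 h, called lower each time. Both 15 h rises rested on the scaling, since with median scaling Sema4b was at -0.12 and Sema6d at 0.18 at 15 h, with no scaling at -0.21 and 0.09, and with the authors' values at -0.10 and 0.22, none of them called. Against the median of all genes under median scaling, Sema4b was at 0.04 and Sema6d at 0.34.

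Plexins are the semaphorins' signalling receptors, and neuropilins bind class 3 semaphorins beside them. Of 7 tested genes, none was higher and 3 were lower at 15 h, and none was higher and 5 were lower at 24 h (at 24 h, 1 was higher at an unadjusted p under 0.05). Plxna4 (NM_175750), a receptor of class 3 and class 6 semaphorins, had the smallest p. It read 6.05, 6.02 and 6.12 at 24 h, against 6.41, 6.41, 6.28 and 6.41 in controls. At 8 h it read 6.29, 6.37 and 6.42 and at 15 h 6.05, 6.14 and 6.14, with no overlap between the late arrays and the controls. It was detected on no 15 h or 24 h array, so it was at least 1.1-fold lower at 15 h (adjusted p = 7.9e-04) and 1.11-fold lower at 24 h (adjusted p = 1.8e-04). Less the median of all genes, its 24 h change was -0.05 with median scaling, -0.04 with no scaling and -0.18 with the authors' values. Plxna2, at -0.22 and not called at 15 h, was at -0.72, -0.81 and -0.71 there with median scaling, no scaling and the authors' values, each called. Plxna2 was lower at 24 h (-0.56 ± 0.14, adjusted p = 0.0023), as were Plxnc1 (-0.32 ± 0.08, adjusted p = 0.0028) and Plxnd1 (-0.36 ± 0.07, adjusted p = 6.0e-04). Less the median of all genes, Plxnc1 was at -0.08, -0.07 and -0.20 with median scaling, no scaling and the authors' values. Plxnd1 was at -0.28, -0.28 and -0.38. The 15 h call of Plxnd1 (-0.23 ± 0.07, adjusted p = 0.0163) was lost without 15 h replicate 2 (adjusted p = 0.0799) or replicate 3 (adjusted p = 0.0574). Plxnb1 read higher on all late arrays than in controls but did not pass the test (0.25 ± 0.11 at 24 h, adjusted p = 0.064), and its 24 h change was -0.18 with median scaling, -0.31 with no scaling and -0.13 with the authors' values.

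Nrp2, the neuropilin of Sema3f, was near the limit of detection, with 6.02 ± 0.09 at 24 h and 6.02 ± 0.04 at 15 h, against 6.21 ± 0.13 in controls (SD, n = 3, 3 and 4). Its changes of -0.19 ± 0.07 were called at both times, and both calls were lost without control replicate 2 (-0.12 at 15 h and -0.13 at 24 h), the highest control at 6.40. The 15 h call was also lost without 15 h replicate 1 or 2 (adjusted p = 0.0765 and 0.0958), and the 24 h call without 24 h replicate 2 or 3 (adjusted p = 0.107 and 0.0867). With the authors' values both calls of Nrp2 were lost (-0.24 and -0.23), and with median scaling the 24 h call (-0.15). Less the median of all genes, its 24 h change was 0.10 with median scaling, 0.10 with no scaling and 0.01 with the authors' values. Nrp1, the neuropilin of Sema3a, had changes of -0.37 ± 0.16 at 15 h and 0.07 ± 0.16 at 24 h (adjusted p = 0.0654 and 0.718). With median scaling Nrp1 was at -0.87 and -0.62 (adjusted p = 4.2e-04 and 0.0053), with no scaling at -0.96 and -0.76 (adjusted p = 1.6e-04 and 0.0013) and with the authors' values at -0.86 and -0.53 (adjusted p = 5.0e-04 and 0.0133).

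Ephrins are ligands held at the cell surface, the A class by a lipid anchor and the B class by a transmembrane domain, and both signal in the cell that carries them as well. Of 7 tested genes, 1 was higher and 3 lower at 15 h, and 2 were higher and 4 lower at 24 h. All 3 B class ephrins fell at both times. Efnb3 (NM_007911), known as the midline barrier to corticospinal axons, read 6.48, 6.37 and 6.45 at 24 h, against 7.94, 7.98, 7.68 and 7.87 in controls. At 8 h it read 7.91, 7.84 and 7.91 and at 15 h 7.37, 6.91 and 6.86. The late arrays lay below all controls and the 24 h arrays below the 15 h ones, with changes of -0.82 ± 0.12 at 15 h (adjusted p = 2.8e-05) and -1.43 ± 0.12 at 24 h (adjusted p = 4.6e-08). Efnb2 changed by -0.50 ± 0.14 at 15 h and by -1.19 ± 0.14 at 24 h (adjusted p = 0.007 and 2.1e-06), and Efnb1 by -0.74 ± 0.13 and -0.78 ± 0.13 (adjusted p = 1.3e-04 and 6.9e-05).

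The A class ephrins went both ways. Efna1 (NM_010107), a ligand of EphA receptors also made by endothelial cells, read 7.28, 7.11 and 7.18 at 24 h, against 6.26, 6.31, 6.20 and 6.32 in controls. At 8 h it read 6.39, 6.14 and 6.16 and at 15 h 7.05, 6.76 and 6.73. Every late array lay above all controls and 8 h arrays, with changes of 0.58 ± 0.09 at 15 h (adjusted p = 5.2e-05) and 0.92 ± 0.09 at 24 h (adjusted p = 2.6e-07). With median scaling these were 0.49 and 0.73. Efna5, which helps to lay out topographic maps, averaged 9.60 ± 0.15 at 24 h and 8.79 ± 0.48 in controls, a change of 0.81 ± 0.21 (adjusted p = 0.0037). This call was lost with median scaling (0.17), no scaling (0.03) and the authors' values (0.28), and its second, dimmer probe was at -0.00 (adjusted p = 0.96). Efna4 was lower at 24 h by a small margin (-0.19 ± 0.08, adjusted p = 0.0436), a call lost without control replicate 3 or 4, 8 h replicate 1 or 3, 15 h replicate 2 or any one 24 h array (adjusted p = 0.0529 to 0.123). Efna3 was called at neither time.

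Eph receptors are receptor tyrosine kinases, the EphA members binding mainly A class and the EphB members mainly B class ephrins. Of 11 tested genes, the test called 2 higher and 5 lower at 15 h, and 2 were higher and 8 lower at 24 h, when their median change was -0.79. Epha8 (NM_007939) read 7.75, 7.76 and 7.67 at 24 h, against 9.00, 8.93, 9.01 and 8.87 in controls. At 8 h it read 9.21, 9.12 and 9.24, above all controls though not past the test (adjusted p = 0.433), and at 15 h 7.92, 7.56 and 7.48. The changes were -1.30 ± 0.11 at 15 h (adjusted p = 1.1e-07) and -1.23 ± 0.11 at 24 h (adjusted p = 8.7e-08), and the 2 late times did not differ beyond their spread (0.08 ± 0.11). Ephb2, a receptor known at glutamatergic synapses, changed by -1.09 ± 0.15 and -1.38 ± 0.15 at these times (adjusted p = 1.5e-05 and 8.1e-07), and its second probe by -0.50 and -0.53.

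Epha3 (-0.61 ± 0.11 and -0.89 ± 0.11) and Ephb6 (-0.68 ± 0.11 and -0.79 ± 0.11), a member without kinase activity, were lower at 15 h and 24 h (adjusted p = 1.8e-04 and 2.6e-06 for Epha3, 6.2e-05 and 1.0e-05 for Ephb6). Epha7, a receptor of cortical and thalamic mapping, was detected on no 15 h or 24 h array and was at least 1.52-fold lower at 15 h and 1.53-fold lower at 24 h (adjusted p = 1.4e-06 and 5.1e-07). Ephb1 and Epha4 were called lower at 24 h and, with quantile normalization, not at 15 h. Ephb1 changed by -0.11 ± 0.12 at 15 h and by -1.15 ± 0.12 at 24 h (adjusted p = 0.471 and 7.9e-07), and between 24 h and 15 h by -1.04 ± 0.13 (adjusted p = 3.6e-05). Epha4, the receptor of Efnb3 in corticospinal axons, changed by -0.05 ± 0.15 at 15 h and by -0.78 ± 0.15 at 24 h (adjusted p = 0.79 and 3.9e-04). Its 15 h arrays read 8.33, 7.77 and 7.47, and without the first of them the 15 h change was -0.29 ± 0.11 (adjusted p = 0.0395). With median scaling, no scaling and the authors' values, the 15 h change of Ephb1 was -0.58, -0.67 and -0.58 and that of Epha4 -0.44, -0.53 and -0.47, called lower each time, and both genes were still called lower at 24 h than at 15 h.

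Epha5 (NM_007937), a receptor for A class ephrins, was the one gene called in opposite directions. It read 6.53, 6.88 and 6.64 at 24 h, against 7.12, 7.18, 7.06 and 6.88 in controls, and 7.63, 7.23 and 7.29 at 15 h, after 7.14, 7.06 and 7.17 at 8 h. The 15 h arrays lay above all controls, whereas 1 of the 24 h arrays read 6.88 like the lowest control. The change was 0.33 ± 0.11 at 15 h (adjusted p = 0.0235) and -0.37 ± 0.11 at 24 h (adjusted p = 0.0104), and between 24 h and 15 h it was -0.70 ± 0.12 (adjusted p = 5.6e-04). The 15 h rise was lost without 15 h replicate 1 (0.21, adjusted p = 0.12) or control replicate 4 (0.27, adjusted p = 0.0717), and the 24 h fall without 24 h replicate 1 (-0.29, adjusted p = 0.0677). With median scaling the change was 0.06 at 15 h and -0.58 at 24 h, with no scaling -0.03 and -0.72, and with the authors' values 0.08 and -0.66.

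Ephb4 and Epha2 were the receptors called higher at 24 h. Ephb4 (NM_010144), known from the parting of arteries and veins, read 6.60, 6.78 and 6.79 at 24 h, against 6.45, 6.46, 6.38 and 6.32 in controls. At 8 h it read 6.25, 6.08 and 6.18 and at 15 h 6.72, 6.94 and 6.84. The late arrays lay above all controls and the 8 h arrays below them, with changes of 0.43 ± 0.08 at 15 h (adjusted p = 1.8e-04) and 0.32 ± 0.08 at 24 h (adjusted p = 0.0018). With no scaling the 24 h change was 0.07 and was not called. Epha2 (NM_010139), which is prominent in epithelial cells, read 6.26, 6.45 and 6.23 at 24 h, against 6.13, 5.98, 5.95 and 5.91 in controls. It was detected on all 3 of the 24 h arrays and on no other array (6.18, 5.95 and 6.10 at 8 h and 6.12, 6.08 and 6.21 at 15 h), and was at least 1.06-fold higher at 24 h (adjusted p = 0.0011).

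**Figure D4:**
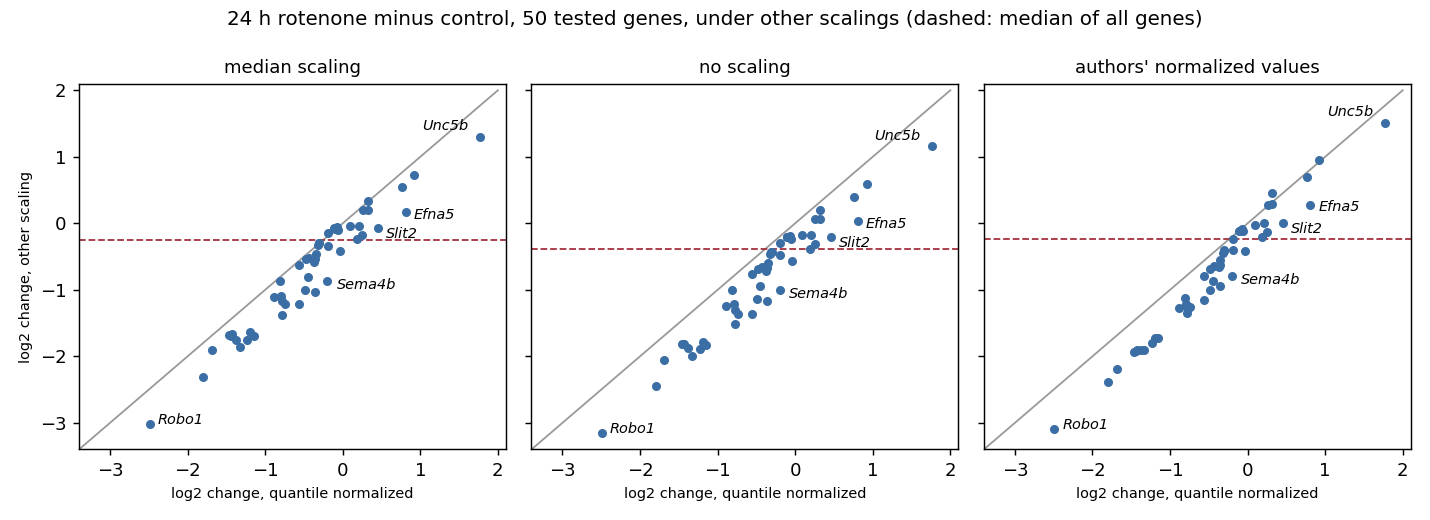
Change at 24 h (log2, rotenone minus control) of the 50 tested guidance genes after quantile normalization (horizontal axis) and under 3 other scalings (vertical axes: median scaling, no scaling, the authors' normalized values), with equal values on the grey line and the median of all genes dashed. Most points lie below the grey line, by amounts that differ between genes (Sema4b at -0.20 against -0.87 with median scaling), Robo1 reaches -3.02 and Unc5b 1.30 with median scaling, and Slit2 lies at 0.46 on the horizontal axis and at -0.07, -0.21 and 0.01 on the vertical axes.

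Between successive times, 9 of the 50 genes were higher and 24 lower at 15 h than at 8 h, where 25.8% of all genes were called higher and 25.3% lower. The 24 h arrays differed from the 15 h arrays in fewer genes, with 4 higher and 11 lower, where 12.2% of all genes were called higher and 10.2% lower. These comparisons share the 15 h arrays with each other. Rises made up 27.3% of the calls between 15 h and 8 h and 13.9%, 13.9% and 14.3% with median scaling, no scaling and the authors' values, and 26.7% of those between 24 h and 15 h and 8.33%, 8.33% and 21.4%. With these 3 scalings, 54%, 52% and 54.7% of all genes were called between 15 h and 8 h. Between 24 h and 15 h, 16.5%, 15.1% and 16.1% were. The genes higher at 24 h than at 15 h were Unc5b, Slit2 (0.63 ± 0.14, adjusted p = 0.0044), Efna1 (0.34 ± 0.09, adjusted p = 0.0161) and Efna3 (0.35 ± 0.12, adjusted p = 0.0496). With median scaling or no scaling, Unc5b alone of these kept its call, and with the authors' values Efna3 lost it. The call of Efna1 was lost without 15 h replicate 2 or 3 or 24 h replicate 1 (adjusted p = 0.0605 to 0.0708) and that of Efna3 without control replicate 1, 2 or 4, 8 h replicate 3, 15 h replicate 1 or 3 or 24 h replicate 2 or 3 (adjusted p = 0.0578 to 0.217). The genes lower at 24 h than at 15 h included Sema4a, Robo1 and Ephb1, given above, and Epha4 (-0.73 ± 0.16, adjusted p = 0.0046), Efnb2 (-0.69 ± 0.15, adjusted p = 0.0031), Efnb3 (-0.61 ± 0.13, adjusted p = 0.0024), Sema4b (-0.58 ± 0.10, adjusted p = 4.9e-04) and Sema6d (-0.57 ± 0.10, adjusted p = 9.5e-04).

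Taken by role, 4 of 26 tested ligands were higher and 15 lower at 24 h, and 4 of 24 tested receptors were higher and 17 lower, with median changes of -0.33 and -0.37. At 15 h, 4 ligands were higher and 11 lower, and 3 receptors higher and 12 lower. Of all genes, 27.4% were called higher and 27.3% lower at 24 h, and 25.4% and 24.7% at 15 h. Efnb3 and its receptor Epha4 were both lower at 24 h, as were Sema6b and Plxna4. With median scaling and no scaling, though, Plxna4 lay close to the median of all genes (-0.05 and -0.04 less that median). Sema3a fell while its neuropilin Nrp1 did not pass the test with quantile normalization, though Nrp1 was called lower with each of the other scalings. Robo1 was lower at 24 h beside a lower Slit1 and, with quantile normalization, a higher Slit2.

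Further guidance genes outside these families and the signalling genes below them were taken as 2 lists, whose values are given with quantile normalization only. Of 22 tested cues and co-receptors, 3 were higher and 11 lower at 24 h, with a median change of -0.35, where 27.4% of all genes were called higher and 27.3% lower. The lower ones with the smallest p were Chl1, a cell adhesion molecule that acts as a semaphorin co-receptor (-2.80 ± 0.16, adjusted p = 9.0e-10), Dscam, an adhesion molecule and netrin receptor (-1.30 ± 0.13, adjusted p = 3.8e-07), and Rgmb, a ligand of neogenin (-0.79 ± 0.10, adjusted p = 5.4e-06). Rgmb was dim at 24 h, with a mean of 5.93 against 6.72 in controls, so its change may be understated. The 3 higher ones were Ryk, a Wnt receptor of growth cones (0.49 ± 0.11, adjusted p = 0.0015), Ntn3, a netrin (0.45 ± 0.12, adjusted p = 0.0059), and the chemokine receptor Cxcr4 (0.47 ± 0.16, adjusted p = 0.0173). Dscam was not called at 15 h (-0.14 ± 0.13, adjusted p = 0.389), whereas Chl1 already was (-1.72 ± 0.16, adjusted p = 3.4e-07).

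Of 42 tested intracellular effectors, 12 were higher and 20 lower at 24 h, with a median change of -0.07. The share higher is near the 27.4% of all genes called higher, and the share lower is above the 27.3% called lower. Tiam1, an exchange factor for Rac that acts below Eph receptors, changed by -1.62 ± 0.13 (adjusted p = 3.4e-08). Dpysl4 and Dpysl2, which belong to the collapsin response mediators that pass on the semaphorin 3A signal to microtubules, changed by -1.21 ± 0.10 and -1.03 ± 0.09 (adjusted p = 5.6e-08 and 6.7e-08). The rises with the smallest p were in Vav3 (0.72 ± 0.08, adjusted p = 1.4e-06), Fyn, a kinase used by several guidance receptors (0.75 ± 0.09, adjusted p = 2.0e-06), and Rnd1, which binds plexins (0.40 ± 0.05, adjusted p = 3.9e-06). Rnd1 was dim in controls, with a mean of 6.08 against 6.49 at 24 h, so its change may be understated. At 15 h, 8 effectors were higher and 18 lower, where 25.4% of all genes were called higher and 24.7% lower. The share of effectors higher was below that of all genes, and the share lower above it. At 8 h none was called in either direction, where 0.145% of all genes were called higher and 0.289% lower.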

How the data were processed

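The deposited table of non-normalized values gives the bead signal intensity of every probe on each array, not yet normalized. A second deposited table holds the authors' ratio of each signal to the median of its array and then to the median of the controls, found by recomputing it (largest relative difference 3.75e-07). A gene profile made with BeadStudio 3.2.6, per the file headers without normalization, gives a detection score per gene as a fraction, read here as a function of signal on each array from 13248 genes with 1 probe. Of its array columns, 102 were not used. For all 13 samples, the profile array that holds identical signals (tolerance 0.05) belongs to the same group but carries a different replicate number from the label, so replicates are called by the labels and both chip assignments were tried.

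Signals were corrected with normexp (offset 50), taken to log2 and then quantile normalized over 13 arrays. Probes with detection p under 0.05 on at least 3 arrays were kept (14366), the brightest standing for its gene (11064 genes; 489 kept probes had no symbol). Probes were named by accession through RefSeq (20510), by the symbol in the description (2560) or by that symbol though the reference lacks it (470), and 1073 had none. One limma 3.58.1 fit in R 4.3.3, with a trended prior, held the 4 groups (9 residual degrees of freedom), with Benjamini-Hochberg adjustment over all genes and a threshold of 0.05. It was tested on simulated data. The genes, lists and tests were chosen with earlier results of these data known. Each family's genes with the smallest p in each direction at 15 h and 24 h, and Epha5, are given on every array, and of the 2 further lists the 3 with the smallest p each way at 24 h. Alternatives covered background correction, scaling, the detection filter, probes, chips, the replicate number, array weights and leaving out each array. The number of arrays limits the precision. Between arrays of different groups with the same replicate number by the labels, correlations of deviations lay between -0.12 and 0.22. The replicate numbers of the matched arrays were not tried, so these values cannot exclude a pairing of cultures across groups.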

Additional observations from a re-analysis of the deposited data

Results flagged for a closer look

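In 4 of the 50 tested genes, 1 of the 4 control arrays lay far from the other 3 by Dixon's test, where chance alone marks about 1 in 20 such groups. Control replicate 2 read 6.40 for Nrp2, against 6.15, 6.12 and 6.16 on the others. Control replicate 3 read 6.28 for Plxna4, where the others read 6.41 each, 9.22 for Sema6b, where they read 9.43 each, and 6.94 for Sema6c, where they read 6.69, 6.71 and 6.70. The calls of Plxna4, Sema6b and Sema6c at 15 h and 24 h held without that array, while those of Nrp2 did not.

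With quantile normalization, Epha5 was called higher than in controls at 15 h and lower at 24 h. The test of the difference between 24 h and 15 h gave -0.70 ± 0.12 (limma adjusted p = 5.6e-04). The 15 h rise was not called with median scaling (0.06), the authors' values (0.08) or no scaling (-0.03). It was also lost with the replicate block, with array weights and without 15 h replicate 1 or control replicate 4. The 24 h fall was lost without 24 h replicate 1.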

How the results depend on the processing

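The counts of guidance genes called at 15 h and 24 h kept within 1.5 times of the values given, except within single chips, where few arrays remain. At 15 h, 18 genes were called on the labels' chip 1 alone. At 24 h, 24 were called on the labels' chip 2 alone and 23 on matched chip 2 alone. For 24 h against 15 h (15 genes), the labels' chips gave 4 and 5, the matched chips 23 and 6, and array weights 27. At 8 h, where none was called, median scaling and no scaling gave 1 each and array weights 15. These settings called 0.443%, 0.515% and 24% of all genes, against 0.434% in the main fit. Matched chip 1 alone, with 1 array at 8 h, moved from none as well. The cause was not tested. Leaving out 1 array gave 0 to 2 genes at 8 h (1 without 8 h replicate 2, 2 without 15 h replicate 1), 28 to 31 at 15 h, 36 to 42 at 24 h, 30 to 35 for 15 h against 8 h and 13 to 16 for 24 h against 15 h. Of all genes, the fits that left out 1 array called 0.0904% to 1.66% at 8 h, 44.9% to 51.6% at 15 h and 48.1% to 60.9% at 24 h. For 15 h against 8 h they called 44.7% to 51.7%, and for 24 h against 15 h 15.4% to 24.7%. Of the 30 calls at 15 h and the 40 at 24 h, 24 and 31 held in every alternative that tested the gene, other than single chips. Epha2, among the 31, was not tested with the strict detection filter. With the replicate number as a block (replicate block), 0, 30 and 39 genes were called at 8 h, 15 h and 24 h. For 15 h against 8 h 33 were called, and for 24 h against 15 h 15, so no count moved by over 1.5 times. Of all genes, this fit called 0.154%, 47.2%, 52.2%, 50.9% and 21.4% in these 5 comparisons.

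Single genes changed sign as follows. At 15 h against control, Sema4b was at -0.12 with median scaling, -0.21 with no scaling and -0.10 with the authors' values, and Sema5a at -0.40, -0.49 and -0.40, at -0.27 by its own probes and at -0.30 with array weights. Epha5 was at -0.03 with no scaling. On matched chip 1 alone, Epha4 was at 0.47 and Sema4a at 0.32 at 15 h, Plxna2 at 0.32 at 8 h, Efnb2 at 0.02 for 15 h against 8 h, and Efnb1 at 0.36 and Sema6b at 0.30 for 24 h against 15 h. With no detection filter, which takes another probe of Nrp2, that gene was at 0.02 at 15 h, 0.08 at 24 h and 0.03 for 15 h against 8 h. At 24 h, Slit2 was at -0.07 with median scaling and -0.21 with no scaling, and Sema5b at -0.38 with no scaling. Testing every probe gave -0.24 for Sema5b and 0.19 for Sema6d at 24 h, and -0.22 for Efna5 for 24 h against 15 h. For 15 h against 8 h, Sema4b was at -0.18, -0.23 and -0.19 and Sema5b at -0.02, -0.07 and -0.03 with median scaling, no scaling and the authors' values.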

Other observations

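Probes of one gene disagreed for several guidance genes beyond those named with their families. For Sema6d, the brighter probe was at 0.53 at 15 h and -0.04 at 24 h, and a dimmer one at 0.16 and 0.19. For Sema5b, the brighter probe was at 0.19 and a second at -0.24 at 24 h. For Nrp1, under its older symbol, both probes were near each other, at -0.37 and -0.47 at 15 h and at 0.07 and -0.09 at 24 h. Of the 13 guidance genes that were not tested, 8 were detected on no array by any probe.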
